A study of Mus musculus with 34 samples.

Results

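The comparison described here is that of the control lines of the study, WT and LWT, in mice given vehicle only. Its members are the 8 liver arrays titled WT vehicle (4 mice) or LWT vehicle (4 mice), out of 34 arrays in the series. WT mice were labelled wild type. LWT mice were labelled liver WT and are the control line set beside a liver-restricted Ppara knockout (LKO). The labels name no floxed allele and no Cre driver for either line. Every one of the 8 mice was a male of 14 weeks on a C57Bl/6J background, fed Safe 04 chow, gavaged daily for 10 days with a 3% gum arabic solution, and killed at zeitgeber hour 14. The rest of the series holds both lines on fenofibrate (4 WT and 5 LWT mice, 100 mg per kg per day), LKO mice (4 on vehicle, 5 on fenofibrate) and whole-body Ppara knockouts (KO, 3 and 5).

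PPARA is a ligand-activated nuclear receptor that is abundant in hepatocytes. With its partner RXR it drives genes for fatty acid uptake, peroxisomal and mitochondrial fatty acid oxidation, omega-hydroxylation and ketone body formation, and fibrates such as fenofibrate are its agonists. Neither control line is labelled as lacking Ppara, so the comparison asks how far the backgrounds that the knockouts are read against differ from each other. The labels give no breeding history for either line.

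Each level below is a log2 spot intensity with the 75th percentile of its own array subtracted, and differences are WT minus LWT on that log2 scale. A gene was called when its limma p, adjusted by Benjamini-Hochberg over 16097 genes, was under 0.05. The label liver held: of 15 hepatocyte markers 14 were tested, and their mean level was 8.58 to 8.72 in WT mice and 8.60 to 8.91 in LWT mice. Arrays of a group correlated at 0.9868 or more, and 52.4% to 60.4% of probes were well above background in WT mice and 54.6% to 58.1% in LWT mice. WT mouse 1 had the lowest 75th percentile (7.61 on the log2 scale) and lay on a slide that held no LWT array. Its column in the authors' deposited table tracked the scanner values of that array less well (r = 0.533 across probes centred on their means) than those of the other 7 mice did (r of 0.965 to 0.977), and it tracked the array of WT mouse 3 better (r = 0.657). Values from the authors' table carry this limit. The same held for the 2 KO arrays of that slide (r = 0.653 and 0.779), and counts are therefore also given without WT mouse 1.

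Probes of some genes described below, called or not, are shown first. Given are the 30 central bases (positions 16 to 45) of each 60-base probe, taken from the array files and read 5′ to 3′ in lower case. The Ppara probe (chr15:85632110-85632169, plus strand, mm9) was not called between the lines. The Cdpf1 probe (chr15:85637436-85637495, minus strand) had the smallest adjusted p of all genes. Bik (chr15:83374048-83374107, plus strand), Tomm22 (chr15:79503096-79503155, plus strand) and Tspyl5 (chr15:33613948-33614007, minus strand) are other genes of the same chromosome. Entpd4 (chr14:69984685-69984744, plus strand) and Nnt (chr13:120124335-120124394, minus strand) were on a list of genes said to differ between C57BL/6 substrains, and the clone BC023969 (chr5:23204116-23204175, minus strand) had the largest difference in favour of WT.
Ppara: agtcaaggtgtggcccaaggttagccattt
Cdpf1: gtcacatccctgtaactccttggagatgat
Bik: ttcgaagcctcaccaacctcagggaaaaca
Tomm22: cctgagtacagaagtcaccaggaatcccag
Tspyl5: tatttttagaagtgggactcataaatgagt
Entpd4: aagagcctgaatttaaaataagaaataaat
Nnt: gaatggaatgcaaccatctgagtaataaat
BC023969: ctacatgccagctgtatttgaagaataaaa

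Ppara itself was not called. Its brightest probe read 6.86, 6.87, 7.06 and 7.28 in WT mice 1 to 4, against 6.70, 7.06, 7.25 and 7.09 in LWT mice 1 to 4. The ranges overlapped, and the difference was -0.01 ± 0.16 (SE, limma adjusted p = 0.988). The sign of so small a difference turned under several settings, and it reached 0.17 in the authors' deposited table (adjusted p = 0.757). Further along the gene, the probe at chr15:85632534-85632593 differed by -0.11 ± 0.15 (limma adjusted p = 0.837) and the one at chr15:85637193-85637252 by -0.48 ± 0.22 (adjusted p = 0.394, over all named probes). No probe of Ppara was called.

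With vehicle alone, 147 of 16097 genes were called (0.913%), 71 higher in WT (0.441%) and 76 lower in WT (0.472%). After normexp and quantile scaling the split was 121 higher and 84 lower, after quantile scaling 108 and 81, and it was 49 higher and 36 lower in the authors' deposited table. With the slide as a block it was 82 higher and 110 lower, in a fit of these 2 groups alone 24 and 33, and without WT mouse 4 98 and 125. Most differences were modest: the median size among called genes was 0.76 on the log2 scale, and 46 genes differed at least 2-fold (0.286%), 24 of them higher and 22 lower in WT. The 8 mice, whose values also made the calls, did not overlap between lines for 142 of the 147, against 7.91% of all genes tested. Without WT mouse 1 the number called was 83 (42 higher, 41 lower), without WT mouse 2 it was 79, without LWT mouse 3 it was 63, and without WT mouse 4 it was 223. Called in every one of the 8 fits that left out a mouse were 53 of the 147 genes, 24 of them on chromosome 15. The authors' deposited table gave 85 called genes, and a fit of these 2 groups alone gave 57. Of the 39 called named genes followed across settings, 17 lost their call in the authors' table: BC023969, Cidec, Cntrl, Cpt1a, Cyp8b1, Etfdh, Krt23, Lamb3, Mast4, Mgll, Mtnr1a, Nlrp12, Slc27a2, Slc2a4, Snhg18, Tspyl5 and Wif1. With the slide as a block 192 genes were called, and within each of the 2 slides that held both lines, whose arrays also entered the calls, all 147 genes had the same sign.

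Chromosome 15, which carries Ppara, held 38 of the 147 called genes. That was 25.9% of the calls from 4.08% of the genes tested. Of its 656 tested genes 5.79% were called, against 0.706% of the 15441 tested genes elsewhere (109 called). Chromosome 8 came next in number, with 13 of 855 genes called (1.52%). The 38 genes ran in both directions, 20 higher and 18 lower in WT. Without WT mouse 1, 32 chromosome 15 genes were called, and over the fits that left out each mouse the number ran from 27 to 41.

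**Figure D1:**
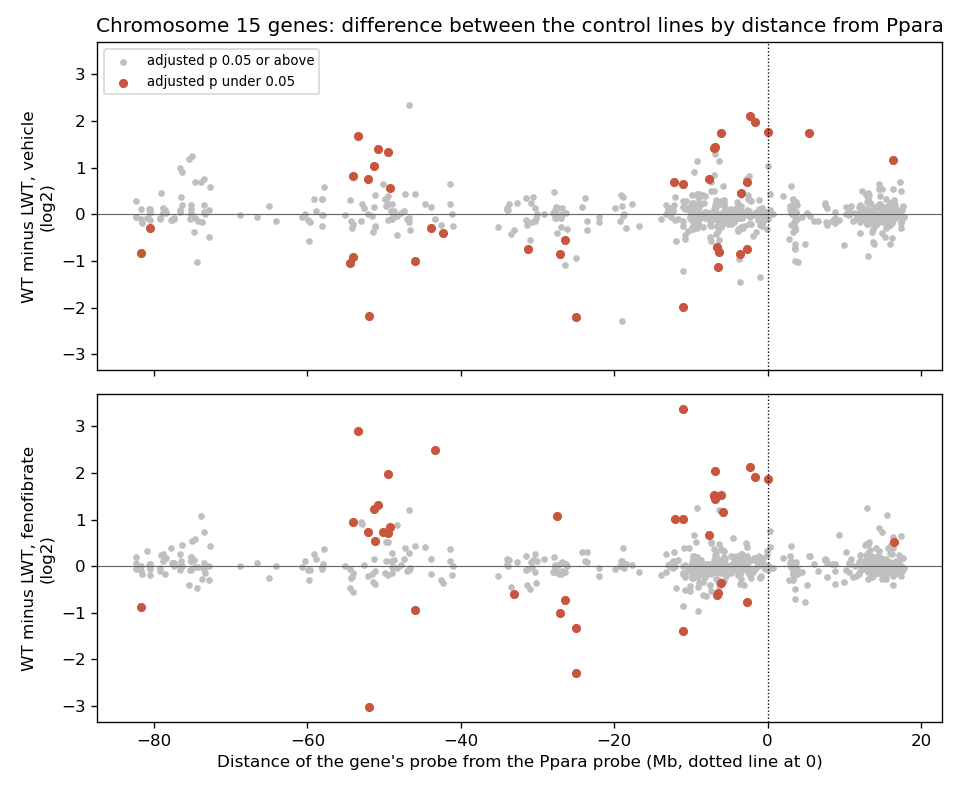
Difference between the control lines (WT minus LWT, log2) for every tested gene of chromosome 15, against the distance of its probe from the Ppara probe in Mb, with vehicle mice above and fenofibrate mice below. Filled red points are called genes (38 with vehicle, 39 with fenofibrate), which lie above and below 0 in groups along the chromosome, with grey uncalled genes between them.

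The called genes of chromosome 15 spanned 3.93 to 102 Mb and lay in stretches. Between 30 and 40 Mb, 11 of 50 tested genes were called, while 0 of the 39 tested genes between 10 and 30 Mb were. Within 10 Mb of the Ppara probe 15 of 286 tested genes were called (5.24%). Among the 17 other genes tested within 1 Mb of it, Cdpf1 was the one called.

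Cdpf1, which encodes a small protein with a cysteine-rich DPF motif, was the sharpest of these. Its level was 1.52, 0.98, 0.77 and 0.87 in WT mice, against -0.80, -0.74, -0.81 and -0.55 in LWT mice. The lowest WT mouse was well above the highest LWT mouse, and the difference was 1.76 ± 0.16 (SE, limma adjusted p = 1.4e-07). Within the 2 slides that held both lines it was 1.58 on each. The Cdpf1 probe begins 183 bases past the end of the last Ppara probe and lies on the opposite strand. LKO mice on vehicle read -1.71 to -0.86 and KO mice -1.05 to -0.56, below every WT mouse.

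Bik, a BH3-only member of the BCL2 family that promotes cell death, read 0.88, 0.58, 0.15 and 0.47 in WT mice, against -1.71, -1.25, -1.47 and -1.95 in LWT mice. The lines did not overlap and differed by 2.12 ± 0.23 (limma adjusted p = 3.8e-06). Tomm22, the central receptor of the mitochondrial protein import complex, read 4.12, 4.02, 4.03 and 3.92 in WT mice, against 2.10, 2.22, 2.37 and 2.43 in LWT mice. That is a 3.35-fold higher level in WT with almost no spread within either line (adjusted p = 0.00051). Lgals1, the galactoside-binding lectin galectin 1, was higher in WT by 1.44 ± 0.23, and Cdc42ep1, an effector of the small GTPase CDC42, by 1.43 ± 0.25 (adjusted p = 0.0010 and 0.0028).

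Lower in WT within the same stretch were Pla2g6, a calcium-independent phospholipase A2, and Poldip3, an RNA-binding protein named here after its values were seen. Pla2g6 read 3.25, 2.91, 3.17 and 3.29 in WT mice, against 4.08, 4.10, 4.41 and 4.57 in LWT mice, a difference of -1.14 ± 0.14 (limma adjusted p = 1.6e-05). Poldip3 read 4.43, 4.26, 4.30 and 4.34 in WT mice, against 5.00, 5.12, 5.07 and 5.10 in LWT mice, and differed by -0.74 ± 0.08 (adjusted p = 5.8e-06). So neighbouring genes of this chromosome differed in opposite directions.

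**Figure D2:**
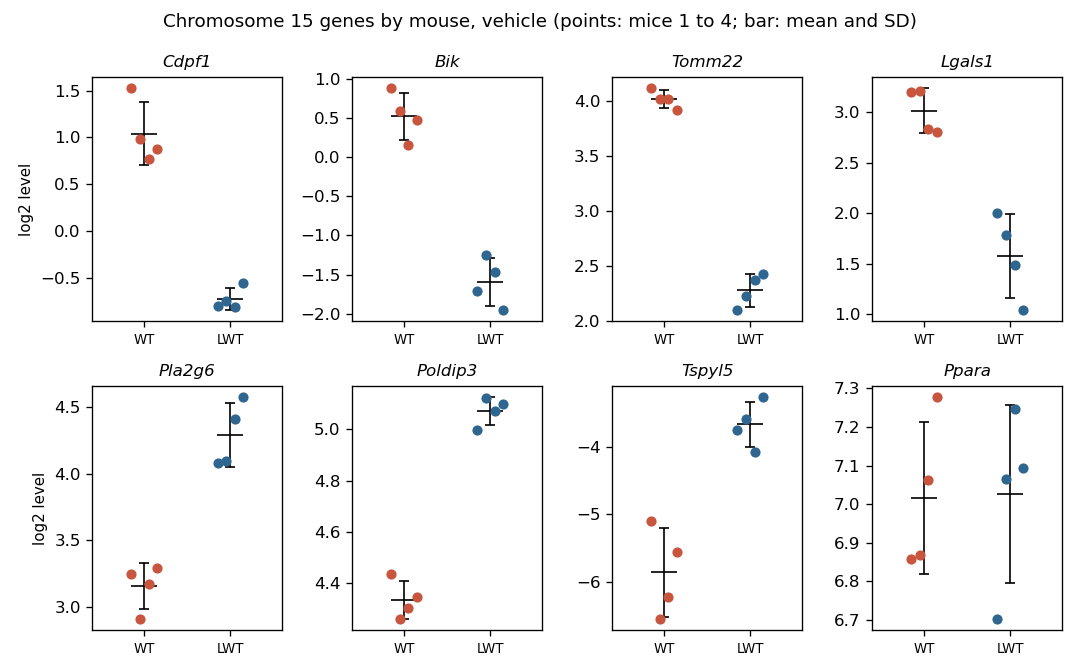
Log2 level (relative to the array's 75th percentile) of 8 chromosome 15 genes in each of the 4 WT mice (left, red) and 4 LWT mice (right, blue) on vehicle, with the mean and SD as bars. Cdpf1, Bik, Tomm22 and Lgals1 are higher in every WT mouse, Pla2g6, Poldip3 and Tspyl5 are lower in every WT mouse, and the Ppara points overlap.

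Some genes of chromosome 15 were at the limit of detection in 1 line. Pnpla3, a lipid droplet hydrolase, was well above background in 4 of 4 WT mice and in 0 of 4 LWT mice, and was at least 3.94-fold higher in WT (limma adjusted p = 0.0072, and 0.0569 without WT mouse 2). This bound equals the fitted fold, since the LWT signal, though not above background, exceeded the lowest detected signal. Abcd2, a peroxisomal transporter of very long chain fatty acyl-CoA and itself a PPARA target, showed the same pattern and was at least 3.36-fold higher in WT, again the fitted fold (adjusted p = 0.0049). In the other direction, Tspyl5, a member of the nucleosome assembly protein family, was well above background in 0 of 4 WT mice and in 4 of 4 LWT mice, and was at least 3.49-fold lower in WT (adjusted p = 0.0015). Jrk, a DNA-binding protein, did likewise and was at least 3.77-fold lower in WT (adjusted p = 0.00051). Lratd2, which encodes an LRAT-domain protein, was well above background in 3 of 4 WT mice and all LWT mice, and differed by -2.20 ± 0.39 (adjusted p = 0.0028). Pnpla3 was kept for testing only through the WT groups, where all arrays were well above background. Tspyl5 was kept only through the LWT groups, so this choice partly set the detection counts of both. In the authors' deposited table Tspyl5 differed by -0.50, less than the bound above, and was not called (limma adjusted p = 0.0898).

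Snhg18, a non-coding host gene of small nucleolar RNAs, read -0.46, -0.87, -1.25 and -1.21 in WT mice, against -2.40, -2.61, -2.70 and -2.77 in LWT mice, a difference of 1.67 ± 0.39 (limma adjusted p = 0.027). A pair of unnamed probes that overlap the Snhg18 probe on the same strand also differed, by 1.32 ± 0.26 and 2.22 ± 0.44 (adjusted p = 0.034 for each, over the unnamed probes). The Snhg18 call was lost without WT mouse 1, WT mouse 2, LWT mouse 2, LWT mouse 3 or LWT mouse 4 (adjusted p of 0.068 to 0.129). With the slide as a block its adjusted p was 0.0519. Farther along, Csad, which makes the precursor of taurine, was higher in WT by 1.17 ± 0.20 (adjusted p = 0.0014), and Srebf2, the transcription factor that drives cholesterol synthesis, was lower by 0.84 on the log2 scale, a difference of -0.84 ± 0.18 (adjusted p = 0.013). A dimmer Srebf2 probe differed by -0.46 ± 0.14 (adjusted p = 0.113). The Srebf2 call was lost without WT mouse 1, LWT mouse 2, LWT mouse 3 or LWT mouse 4 (adjusted p of 0.0534 to 0.0733).

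The same line difference can be read a second time in mice given fenofibrate, 4 WT and 5 LWT. These arrays enter no vehicle mean, but they share the estimate of residual spread in the fit of all 8 groups. There 85 genes were called (0.528%), 50 higher in WT (0.311%) and 35 lower (0.217%), and 39 of the 85 were on chromosome 15. All 38 chromosome 15 genes called with vehicle had the same sign with fenofibrate, and 25 of them were called again, which is 65.8% of the 38 and 64.1% of the 39. Of the 109 called genes elsewhere, 104 had the same sign and 9 were called again, 8.26% of the 109 and 19.6% of the 46 called there with fenofibrate. Groups did not overlap with fenofibrate for 32 of the 38 genes and 31 of the 109, against 4.96% of all genes tested.

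By size, the median ratio of the fenofibrate difference to the vehicle difference was 0.939 over the 38 genes and 0.350 over the 109, where the vehicle values had chosen the genes. Cdpf1 differed by 1.87 ± 0.15 with fenofibrate, Bik by 2.12 ± 0.22 and Poldip3 by -0.76 ± 0.08. Abcd2, by contrast, differed by 0.21 ± 0.32 (limma adjusted p = 0.903). The test of the difference between the vehicle and fenofibrate line differences called 0 genes with limma, with 683 at an unadjusted p under 0.05 (4.24%), and at most 3 under any other setting run.

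**Figure D3:**
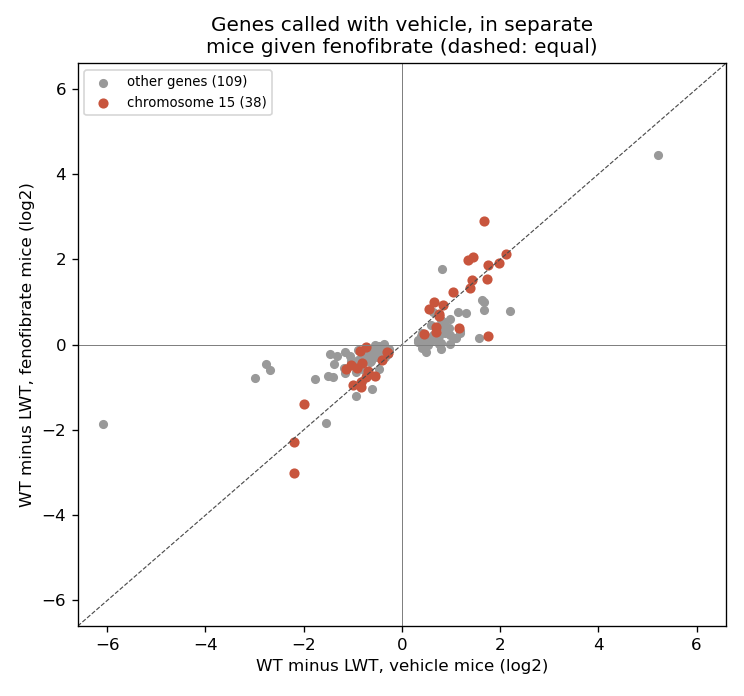
WT minus LWT difference (log2) of the 147 genes called with vehicle, in vehicle mice (x axis) and in the separate fenofibrate mice (y axis), with the dashed line marking equal values. Most of the 38 red chromosome 15 genes lie near the dashed line, with exceptions such as Abcd2 (1.75 with vehicle and 0.21 with fenofibrate), and most of the 109 grey genes lie between it and 0 on the fenofibrate axis.

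Outside chromosome 15 several of the largest differences were at low levels or uneven. Others, such as Krt23, Lamb3, Mtnr1a and Cntrl below, were well above background in every mouse of both lines. BC023969, a transcript known by its clone name and named here after its values were seen, read -0.27, -1.19, -1.58 and -1.19 in WT mice, against -6.28, -6.44, -6.39 and -6.02 in LWT mice. It was well above background in 4 of 4 WT mice and 0 of 4 LWT mice, and was at least 24.4-fold higher in WT (limma adjusted p = 0.0012). With fenofibrate it was again called, with a difference of 4.46 ± 0.82 (adjusted p = 0.0035). Of the unnamed probes, 3 from the same strand within 1 kb differed by 2.30 to 3.25. In the authors' deposited table the BC023969 difference was 1.46 and was not called (adjusted p = 0.127).

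Also higher in WT were Amer2, a membrane adaptor that binds APC (2.21 ± 0.47, limma adjusted p = 0.013), and Cspg5, a chondroitin sulfate proteoglycan (1.67 ± 0.31, adjusted p = 0.0040). Amer2 was well above background in 4 of 4 WT mice and 1 of 4 LWT mice, and its adjusted p was 0.0503 without LWT mouse 3. It was kept for testing only through the WT groups, so this choice partly set its detection count. Tmem267, a transmembrane protein, read 0.41, 0.99, 1.35 and 1.71 in WT mice, against -0.96, -0.70, -0.58 and 0.13 in LWT mice (1.64 ± 0.31, adjusted p = 0.0049), and its other probes, which were dimmer, differed by 3.19 and 3.25. Slc2a4, the insulin-responsive glucose transporter GLUT4, read -0.62, -1.10, -1.34 and -1.46 in WT mice, against -1.59, -3.14, -2.94 and -3.53 in LWT mice (1.67 ± 0.36, adjusted p = 0.017). LWT mouse 1 lay close to the WT mice. The Slc2a4 call was lost without WT mouse 1, WT mouse 2, LWT mouse 2, LWT mouse 3 or LWT mouse 4 (adjusted p of 0.0526 to 0.0887).

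Lower in WT was Wif1, a secreted inhibitor of WNT ligands. It was well above background in 0 of 4 WT mice and 2 of 4 LWT mice. Set against the lowest detected signal it was 3.25-fold lower in WT (limma adjusted p = 0.00032). The LWT mean includes mice not above background, so this fold is not a strict bound. The call was lost after normexp and quantile scaling (difference -0.44, adjusted p = 0.358) and in the authors' deposited table (difference -0.83, adjusted p = 0.0917). Krt23, a type I keratin on the list of cholangiocyte markers, read -0.28, -0.58, 0.50 and 0.29 in WT mice, against 1.43, 1.90, 2.32 and 1.33 in LWT mice (-1.77 ± 0.33, adjusted p = 0.0040). With fenofibrate the Krt23 mean was 5.13 in WT and 5.93 in LWT mice, and on vehicle it was -1.70 in LKO and -2.41 in KO mice. None of the other 9 cholangiocyte markers tested were called, and the mean level of the whole list was -1.41 to -0.98 in WT mice and -1.32 to -0.71 in LWT mice. Lamb3, a laminin chain, differed by -1.47 ± 0.26 (adjusted p = 0.0028). Its mean in WT mice was -0.56 with vehicle and 2.01 with fenofibrate, and on vehicle it was -0.27 in LKO and -0.39 in KO mice. Mtnr1a, a melatonin receptor, differed by -1.39 ± 0.31 (adjusted p = 0.019), a call lost without WT mouse 1, WT mouse 2, LWT mouse 2 or LWT mouse 3 (adjusted p of 0.0565 to 0.0874). On vehicle the Mtnr1a mean was -0.80 in WT mice, -3.93 in LKO mice and -5.02 in KO mice. It was well above background in 2 of 4 LKO and 1 of 3 KO mice. Cntrl, a protein of the centriole, differed by -1.16 ± 0.24 (adjusted p = 0.011), a call lost without WT mouse 1 or LWT mouse 3 (adjusted p of 0.0701 and 0.0566) and with the mean of its probes (difference -0.20, adjusted p = 0.785).

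Moxd1, a monooxygenase related to dopamine beta-hydroxylase, had the largest fitted difference of any gene, -6.09 ± 1.09 (limma adjusted p = 0.0028). It read -3.75, -3.55, -5.77 and -4.13 in WT mice, of which 2 were well above background, against 3.59, 3.47, 3.48 and -3.37 in LWT mice. LWT mice 1 to 3 were thus at one high level and LWT mouse 4 was close to WT. Without LWT mouse 4 the difference was -7.81 (adjusted p = 3.0e-06), and in a fit of these 2 groups alone it was not called (adjusted p = 0.165). With fenofibrate Moxd1 read -5.72 to -5.31 in WT mice and -5.12 to -0.62 in LWT mice (adjusted p = 0.586). On vehicle, LKO mice read 5.05 to 6.70 and KO mice 5.13 to 7.17.

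Genes reported to differ between C57BL/6 substrains were looked at as a list of 8, of which 7 were tested and 2 were called, both lower in WT, where 0.472% of all genes were called lower. Its median difference was -0.51, against 0.0043 over all genes tested, and -0.03 without WT mouse 1. Entpd4, a Golgi nucleoside diphosphatase, read 3.58, 3.54, 3.63 and 3.55 in WT mice, against 4.35, 4.48, 4.36 and 4.34 in LWT mice. The gap was many times the spread within either line (-0.81 ± 0.13, limma adjusted p = 0.00058), and it was of like size with fenofibrate (-0.85 ± 0.12, adjusted p = 8.3e-05). A second probe of Entpd4 differed by -0.66 ± 0.17 (adjusted p = 0.0518). Nlrp12, an inflammasome regulator, differed by -0.73 ± 0.18 (adjusted p = 0.035), a call lost when WT mouse 1, WT mouse 2 or any LWT mouse was left out (adjusted p of 0.0505 to 0.206). With the slide as a block the adjusted p of Nlrp12 was 0.0568. Wdfy1, Ide, Cyfip2 and Naip1 were not called, with differences of -0.07, 0.03, 0.23 and -0.51.

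Nnt, the mitochondrial transhydrogenase that makes NADPH and that carries a known deletion in C57BL/6J, did not behave evenly. It read 3.52, 3.89, 3.91 and 3.93 in WT mice, against 4.99, 5.02, 4.88 and 3.84 in LWT mice. LWT mice 1 to 3 were high and LWT mouse 4 lay among the WT mice, and the difference was not called (-0.87 ± 0.23, limma adjusted p = 0.073). Without LWT mouse 4 it was -1.15 (adjusted p = 0.0064). A dimmer probe nearby differed by -2.31 ± 0.63 (adjusted p = 0.0771) and another by 0.32 ± 0.34 (adjusted p = 0.784). With fenofibrate, WT mice read 4.16 to 4.56 and LWT mice 4.47, 4.46, 4.22, 4.51 and 5.54, so that LWT mouse 5 stood above the rest.

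On the same chromosome 13, Ppwd1, a spliceosomal cyclophilin, and the predicted gene Gm2569, both named after their values were seen, showed LWT mouse 4 between the other LWT mice and WT. Ppwd1 read -2.37, -2.43, -2.28 and -2.31 in WT mice, against -1.13, -1.15, -1.21 and -1.70 in LWT mice (-1.05 ± 0.19, limma adjusted p = 0.0029), while its other probe differed by -0.03 ± 0.15 (adjusted p = 0.963). Gm2569 read -4.80, -4.29, -3.89 and -4.28 in WT mice, against -1.17, -1.06, -0.97 and -2.12 in LWT mice (-2.98 ± 0.44, adjusted p = 0.00044). With fenofibrate LWT mice 1, 2 and 4 read -2.16, -2.09 and -2.18 for Ppwd1, inside or near the WT range of -2.21 to -2.09, and LWT mice 3 and 5 read -1.51 and -1.60. Mast4, a microtubule-associated kinase gene in the same stretch, differed by -1.51 ± 0.34 with vehicle (adjusted p = 0.020), a call lost without WT mouse 2, WT mouse 3, LWT mouse 1 or LWT mouse 2 (adjusted p of 0.0574 to 0.11) and with the mean of its probes. The other Mast4 probes differed by -0.22 and -0.20 (adjusted p = 0.658 and 0.82).

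**Figure D4:**
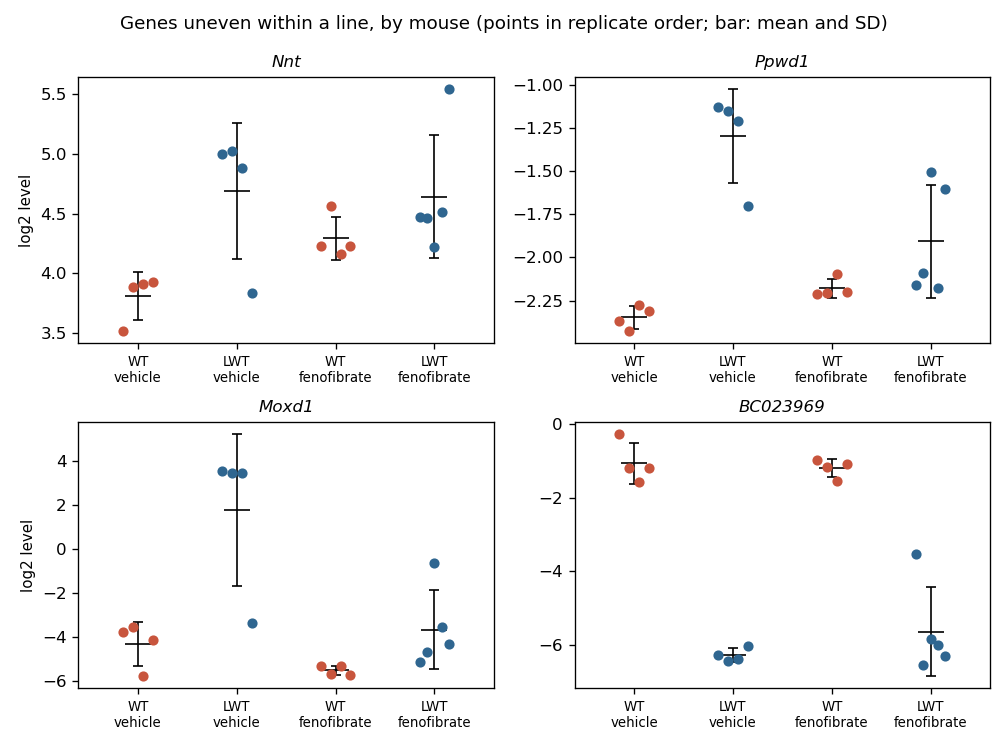
Log2 level of Nnt, Ppwd1, Moxd1 and BC023969 in each WT mouse (red) and LWT mouse (blue), on vehicle (left pair) and fenofibrate (right pair), with points in replicate order and the mean and SD as bars. With vehicle, LWT mouse 4 lies away from LWT mice 1 to 3 for Nnt, Ppwd1 and Moxd1, while all 4 LWT mice are low for BC023969.

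Over 5 lists of genes that PPARA controls or that act in its pathways, 5 genes were called lower and 1 higher in WT with vehicle. Krt23, Lamb3 and Mtnr1a, called lower in WT above, are on none of these lists. Of 28 genes of peroxisomal fatty acid oxidation 2 were called lower in WT and 1, Abcd2, higher, and the median difference was -0.32. Of 22 genes of mitochondrial fatty acid oxidation 2 were called, both lower in WT, with a median of -0.24. Of 25 other PPARA targets 1 was called, lower in WT (median -0.30), and of 14 genes of omega-oxidation and 6 of ketogenesis none were called (medians -0.22 and -0.14). The mean level of each of the 5 lists overlapped between the lines, and for the peroxisomal list it was 4.64 to 5.23 in WT mice and 5.01 to 5.41 in LWT mice. In the authors' deposited table the median of the other PPARA targets was 0.0046. Over all genes tested the median was 0.0043, 49.1% lay below 0 and 0.472% were called lower in WT. Differences lay below 0 for 25 of 28 peroxisomal, 21 of 22 mitochondrial and 22 of 25 other target genes. The same held for 10 of 14 genes of omega-oxidation and 5 of 6 of ketogenesis. Without WT mouse 1 the peroxisomal, mitochondrial and other target counts were 22, 21 and 20, and with fenofibrate they were 25, 22 and 15.

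The number of calls moved with the mice and with the processing. Over the 5 lists, 5 genes were called lower in WT, against 1 without WT mouse 1, 2 without WT mouse 2, LWT mouse 3 or LWT mouse 4, 9 without LWT mouse 1, 12 without WT mouse 4, 11 after normexp and quantile scaling, 8 with the replicate number as a block, and 0 in the authors' deposited table. The peroxisomal median ran from -0.37 to -0.14 over the 17 alternatives run, and the mitochondrial median from -0.32 to -0.09. With fenofibrate the peroxisomal, mitochondrial and other target medians were -0.12, -0.09 and -0.04.

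Cidec, which enlarges lipid droplets, had the widest gap among the called targets. It read -0.52, 0.60, 1.22 and 2.60 in WT mice, against 2.75, 3.32, 4.18 and 4.37 in LWT mice, without overlap (-2.68 ± 0.61, limma adjusted p = 0.024). WT mice alone spanned more than 3 units. The call was lost without WT mouse 1, WT mouse 2, LWT mouse 3 or LWT mouse 4 (adjusted p of 0.0792 to 0.144). With slide as a block the adjusted p was 0.0636. A dimmer Cidec probe differed by -2.37 ± 0.47 (adjusted p = 0.0067, over all named probes). That probe was not followed in the fits that left out a mouse.

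Cpt1a, which admits long chain fatty acids to mitochondria, read 6.72, 6.85, 6.89 and 7.06 in WT mice, against 7.28, 7.27, 7.31 and 7.26 in LWT mice (-0.40 ± 0.08, limma adjusted p = 0.0087, and 0.0574 without WT mouse 1). Slc27a2, a fatty acid transporter and acyl-CoA synthetase, read 8.13 to 8.44 in WT mice and 8.52 to 8.81 in LWT mice (-0.44 ± 0.09, adjusted p = 0.0056). Its call held in each of the 8 fits that left out a mouse, and was lost in the fit of these 2 groups alone and in the authors' deposited table. Etfdh, which passes electrons from fatty acid oxidation to the respiratory chain, differed by -0.46 ± 0.10 (adjusted p = 0.019), a call lost without WT mouse 1, WT mouse 2, LWT mouse 3 or LWT mouse 4 (adjusted p of 0.0738 to 0.129).

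Of the PPARA targets, Cyp4a14, Cyp4a10 and Fgf21 ranged widely in WT mice and were not called. Cyp4a14, a fatty acid omega-hydroxylase, read 2.58, 6.72, 7.60 and 8.28 in WT mice, against 7.33, 7.82, 8.31 and 9.20 in LWT mice (-1.87 ± 1.02, limma adjusted p = 0.474). Cyp4a10 read 5.65, 7.69, 8.02 and 8.64 in WT mice, against 8.53, 9.07, 9.02 and 9.46 in LWT mice (-1.52 ± 0.67, adjusted p = 0.333). WT mouse 1 was the lowest of the 8 for both, and without it the differences of Cyp4a14 and Cyp4a10 were -0.64 and -0.90. Fgf21, a liver hormone of fasting, read -2.70, -0.47, -0.13 and 0.61 in WT mice, against 0.81, 1.20, 1.88 and 1.88 in LWT mice, with no overlap but no call (-2.11 ± 0.71, adjusted p = 0.165). After normexp and quantile scaling Fgf21 was called (-1.72, adjusted p = 0.0043).

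Plin2, a lipid droplet coat protein, read 6.39, 6.64, 7.25 and 7.88 in WT mice, against 7.76, 7.65, 8.33 and 8.35 in LWT mice. It was not called (-0.98 ± 0.26, limma adjusted p = 0.073), but was with the replicate number as a block (adjusted p = 0.021) and after normexp and quantile scaling (adjusted p = 0.039). Ehhadh, Pdk4, Acot1 and Vnn1 differed by -0.66, -0.89, -0.65 and -0.34, and Cd36, a fatty acid receptor, by 0.08, none of them called. Without WT mouse 1 the differences of Ehhadh, Pdk4, Acot1 and Vnn1 were -0.24, -0.17, -0.14 and -0.12, and without WT mouse 4 Ehhadh was called (-1.08, adjusted p = 0.0334). In the authors' deposited table the differences of Acot1 and Vnn1 were 0.02 and 0.17.

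**Figure D5:**
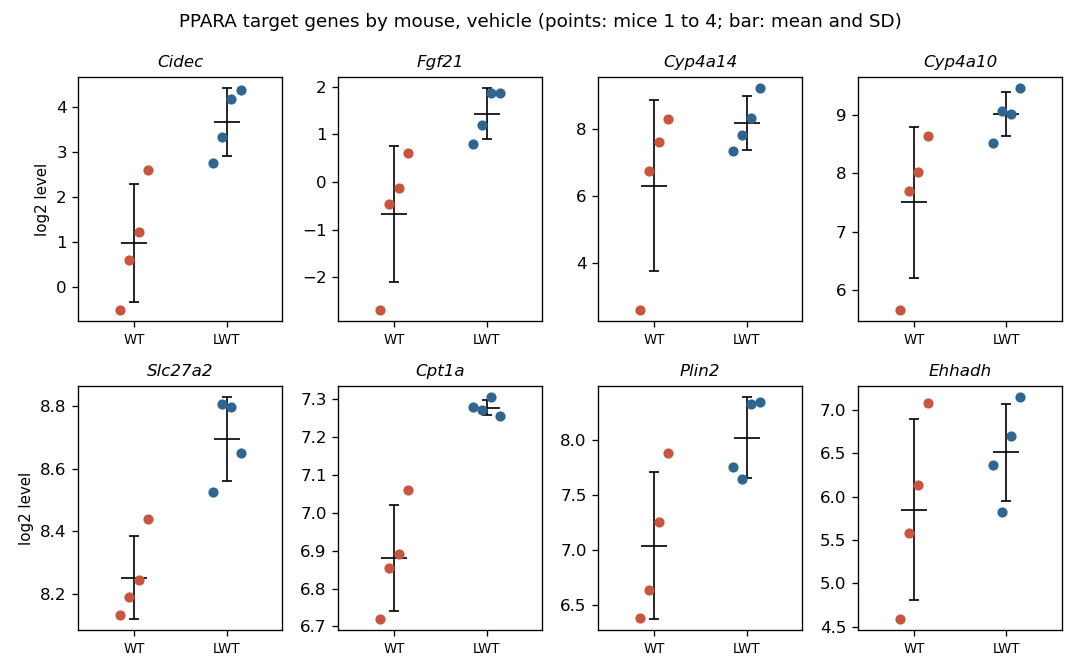
Log2 level of 8 PPARA target genes in each of the 4 WT mice (left, red) and 4 LWT mice (right, blue) on vehicle, with the mean and SD as bars. WT mice spread more widely than LWT mice for Cyp4a14, Cyp4a10 and Cidec, and the WT mean is lower in all 8 panels. Abcd2 and Cd36, not shown, had a higher WT mean (differences of 1.75 and 0.08).

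Other metabolic lists gave few calls, where 0.441% of all genes were called higher and 0.472% lower in WT. Of 37 genes of amino acid catabolism and the urea cycle, Csad was called higher and Bhmt, which remethylates homocysteine with betaine, lower in WT (-0.81 ± 0.16, limma adjusted p = 0.0056). The median of that list was -0.20, with 34 of 37 members below 0, against 49.1% of all genes tested, and it was -0.26 with fenofibrate. Of 27 genes of lipid uptake and droplets 3 were called, all lower in WT: Slc27a2, Cidec and Mgll, a monoglyceride lipase (-0.51 ± 0.13, adjusted p = 0.047). The Mgll call was lost without WT mouse 1, WT mouse 2, WT mouse 3, LWT mouse 3 or LWT mouse 4 (adjusted p of 0.0665 to 0.211). With the slide as a block its adjusted p was 0.0728.

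Of all genes 0.913% were called in either direction. Among 21 genes of bile acid synthesis and transport 1 was called, Cyp8b1, the sterol 12-hydroxylase that sets the share of cholic acid (-0.78 ± 0.19, limma adjusted p = 0.037). Its call was lost when any mouse other than WT mouse 3 or LWT mouse 1 was left out (adjusted p of 0.0591 to 0.142). Srebf2 was the one called among 25 genes of cholesterol synthesis, whose median was -0.14 with vehicle (-0.06 without WT mouse 3 or WT mouse 4, -0.24 without WT mouse 1 and -0.25 without WT mouse 2) and 0.12 with fenofibrate. Pnpla3 was the one called among 24 genes of fatty acid and triglyceride synthesis (median 0.08, and -0.04 without WT mouse 1).

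No gene was called in the lists for xenobiotic metabolism, the Cyp2d cluster, NRF2 targets, endoplasmic reticulum stress, the circadian clock, the acute phase response, interferon, antigen presentation, male-biased or female-biased liver genes, the growth hormone axis, glucose handling, apolipoproteins, oxidative phosphorylation, PPAR coactivators or the cell cycle. The highest median among these was 0.13, over 18 genes of endoplasmic reticulum stress, and the lowest was -0.13, over 27 genes of the acute phase response.

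Markers of other cell types were also set side by side. Of 15 Kupffer cell and macrophage markers 14 read higher in WT, with none called and a median of 0.16 (0.07 without WT mouse 1 and 0.01 without LWT mouse 3, with 4 and 6 of 15 below 0), and their mean level was 1.82 to 2.32 in WT mice and 1.36 to 2.21 in LWT mice. Of 13 stellate cell and fibroblast markers 10 read higher in WT (median 0.10, and 0.04 with 6 of 13 below 0 without WT mouse 1, mean level of 0.50 to 1.22 in WT mice and 0.36 to 0.78 in LWT mice). The medians were 0.01 over 13 endothelial markers, 0.15 over 13 lymphocyte and neutrophil markers, -0.02 over 3 pancreatic acinar markers, -0.37 over 7 red blood cell markers and -0.60 over 3 adipocyte markers, with none called. The adipocyte median was -0.23 without WT mouse 1, -1.02 without WT mouse 3 and 0.04 in the authors' deposited table. The other 3 adipocyte markers and 3 acinar markers did not pass the filter on dim probes. In whole liver, fewer cells of a type and less RNA per cell cannot be told apart, and the part of cell makeup in the line differences was not tested.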

How the data were processed

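Cy3-labelled cRNA from 34 mouse livers was hybridised to one-color Agilent arrays. The deposited scanner files hold spot intensities on a linear scale, background-corrected in Feature Extraction (Agilent, version 10.10.1.1); the software and the mm9 probe positions are per the file headers. The authors' deposited value table is in log2 units with a common column median of 7.63; its scale was matched to the scanner values, and the adjustment of the slide 1 columns is not stated. The submitters' processing notes also name limma.

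Outlier-flagged spots were set to missing, spots of a probe averaged, log2 taken and each array's 75th percentile subtracted. A probe was kept if all arrays of any 1 of the 8 groups were flagged well above background; the brightest probe stood for its gene (16097 genes). Of 55681 probes, 27319 were named by accession, 3523 by symbol, 551 by synonym and 1802 by the file, and 22480 had no name; the name table is of a later build and gave names only. Means of the 8 groups (34 arrays) were estimated in limma (version 3.58.1, R 4.3.3), with two-sided p and Benjamini-Hochberg adjusted p. Where no array of a group was above background, the fold is a bound against, per array, the higher of the lowest detected signal and the probe's own. The step was tested on simulated data. The labels state no pairing. Deviations of same-numbered vehicle mice had r of 0.104 to 0.233, with 3 of the 4 pairs on a shared slide. The pair on different slides had r = 0.232, and mice of different number on a shared slide had r of -0.137 and -0.0888. Other mice of different number had r of up to 0.185 (WT mouse 4 and LWT mouse 3). With fenofibrate, same-numbered mice had r of -0.0749 to -0.000815.

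Members and lists were chosen with earlier results of these data known. Named genes were Ppara, 10 PPARA targets, the 12 largest called differences each way with a proper symbol, up to 4 called members of each of 36 lists, the tested substrain genes, and up to 8 called genes within 10 Mb of Ppara; others are marked, and some genes are not reported here. Columns of the deposited tables that match no sample numbered 0.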

Additional observations from a re-analysis of the deposited data

Results flagged for a closer look

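Within a line, single mice stood apart from the other 3 by the gap-to-range criterion for 8 of 108 groups of values examined (7.41%), where chance alone gives about 1 in 20. The widest was Moxd1, at -3.37 in LWT mouse 4 against 3.47 to 3.59 in the other LWT mice. The same mouse read 3.84 for Nnt (others 4.88 to 5.02), -1.70 for Ppwd1 (others -1.21 to -1.13) and 2.56 for Ide (others 2.47 to 2.48). LWT mouse 1 read 0.27 for Srebf2 (others 1.01 to 1.06). LWT mouse 2 read 4.48 for Entpd4 (others 4.34 to 4.36). WT mouse 1 read 3.52 for Nnt (others 3.89 to 3.93), and WT mouse 4 read -0.30 for Cd36 (others 0.22 to 0.29). The reason for these readings was not tested.

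Outside the named genes, 8 of 9538 detected probes without a gene name were called between the lines with vehicle by limma (0.0839%). Of these, 3 lay beside BC023969 and 2 overlapped the Snhg18 probe. A probe at chr15:73468883-73468942 (minus strand, mm9) differed by -2.99 ± 0.45 with vehicle and by -3.12 with fenofibrate (limma adjusted p = 0.0028 and 0.00026). The remaining 2, on chromosomes 6 and 17, differed by -0.73 and -1.32 and were not called with fenofibrate. In all, 4 of the 8 were called again with fenofibrate.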

How the results depend on the processing

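With vehicle, 147 genes were called, against 85 in the authors' deposited table and 57 in a fit of the 2 groups alone. The other settings gave 102 to 205, and the fits that left out a mouse gave 63 to 223. The share higher in WT was 48.3%, against 59.0% after normexp and quantile scaling, 57.1% after quantile scaling and 57.6% in the authors' table. Calls of at least 2-fold numbered 46, against 28 after normexp and quantile scaling and 19 in the authors' table, and 30 to 67 in the fits that left out a mouse. Chromosome 15 held 38 called genes, against 21 in the fit of the 2 groups alone, and 27 to 41 in the fits that left out a mouse. PPARA target and fatty acid oxidation genes called lower in WT numbered 5, against 11 after normexp and quantile scaling, 0 in the authors' table and in the fit of the 2 groups alone, 8 with the replicate block, and 1 to 12 in the fits that left out a mouse. The fit of the 2 groups alone estimates the spread from those groups only, and the cause of these changes was not tested.

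With fenofibrate 85 genes were called, against 144 with the slide as a block and 48 to 133 in the fits that left out a mouse. The test between the vehicle and fenofibrate differences called 0 genes, against 2 after normexp and quantile scaling, 1 with the stricter filter on dim probes, 3 with the slide as a block and 0 to 2 in the fits that left out a mouse.

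The replicate block gave 176 called genes with vehicle and 84 with fenofibrate. Beyond the target gene count and Plin2, it changed the call of none of the named genes followed across settings. Ppara, at -0.00998, turned to 0.00362 after normexp and quantile scaling, 0.00409 after quantile scaling, 0.172 in the authors' table and 0.0129 with the slide as a block, and ran from -0.118 to 0.0636 in the fits that left out a mouse, never called. Signs of other uncalled genes turned in the authors' table for Acot1 (0.0192), Vnn1 (0.171), Cyfip2 (-0.0209) and Wdfy1 (0.0727), with the mean of probes for Wdfy1 (0.000801), and with the slide as a block for Wdfy1 (0.0226) and Ide (-0.00197). Wdfy1 ran from -0.166 to 0.0188 in the fits that left out a mouse. Of the 39 called named genes followed across settings, 20 lost the call in the fit of the 2 groups alone. For called named genes, 551 results under the alternatives kept direction and call and 101 lost the call without changing sign. The number of arrays limits the precision, and genes near background carry bounds rather than levels.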

Other observations

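Dgkh, a diacylglycerol kinase on chromosome 14 named after its values were seen, differed between the lines under both treatments. It read -0.93, -0.83, -0.56 and -0.31 in WT mice on vehicle, against -1.59, -1.51, -1.47 and -1.38 in LWT mice (0.83 ± 0.16, limma adjusted p = 0.0049). With fenofibrate it read 0.89 to 1.25 in WT mice and -0.93 to -0.22 in LWT mice. Away from chromosome 15, called genes also lay close together on chromosome 8, where Sugp1, a splicing factor, and Rfxank, a regulator of class II antigen presentation genes, were lower in WT with vehicle (-0.54 ± 0.13 and -0.92 ± 0.20, adjusted p = 0.035 and 0.018) and with fenofibrate (-0.74 and -1.20). Abhd8, a called gene close by, was higher in WT with vehicle (0.66 ± 0.14, limma adjusted p = 0.013) and was not called with fenofibrate (adjusted p = 0.699). All were named after their values were seen, and none was among the 15 genes called in every setting run. Similar groups lay on other chromosomes, such as 7 and 13, and how many chance alone would give was not tested.

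The 38 called genes with other probes had 54 of them, of which 45 had the sign of the brightest probe and 14 were called.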
